A study of Mus musculus with 83 samples.

Results

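The Iroquois homeobox family (Irx1, Irx2, Irx3, Irx4, Irx5 and Irx6) was followed in bulk RNA-seq of the colon, as 6 of the 37764 genes counted. The members are all the genes with these names, and the family was chosen by a measured value, the difference in Irx2 counts between ages. Age differences of the 6 members are therefore given as a description without p-values, with standard errors for Irx2 and Irx4 only. Genes outside the family carry tests, except Gm20554 and Ces1c, neighbours picked after their values were seen. The mice were unmodified males of the C57BL/6J/Ukj strain, aged 3, 9, 15, 24 or 28 months, and these ages were represented by 16, 16, 16, 17 and 18 mice. Each mouse was sampled at 1 age, so the ages compare different animals of 1 sex and 1 strain. RNA came from a piece of whole colon wall, and in such bulk tissue fewer cells of a type and less RNA per cell cannot be told apart. The libraries held 23026370 to 75838290 read pairs assigned to genes (median 35495123). Each of the 3 library preparation batches held 4 to 7 mice of every age.

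Iroquois genes encode transcription factors of the TALE class, in which a loop of the homeodomain is extended. The same class holds the Meis, Pbx, Pknox and Tgif factors, and Meis and Pbx proteins are partners of Hox proteins on DNA. Mammals carry the family as a pair of clusters, IrxA with Irx1, Irx2 and Irx4 and IrxB with Irx3, Irx5 and Irx6, and the genes are best known for patterning the neural tube, heart, limb and other embryonic organs.

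In GRCm38 the IrxA cluster lies on chromosome 13. Irx1 (ENSMUSG00000060969) spans 71957921 to 71963723 on the minus strand, Irx2 (ENSMUSG00000001504) spans 72628820 to 72634198 on the plus strand, and Irx4 (ENSMUSG00000021604) spans 73260479 to 73269608 on the plus strand. The IrxB cluster lies on chromosome 8, with Irx3 (ENSMUSG00000031734) at 91798525 to 91802067 on the minus strand, Irx5 (ENSMUSG00000031737) at 92357625 to 92376286 and Irx6 (ENSMUSG00000031738) at 92674288 to 92680956, both on the plus strand. Within a cluster the genes are separated by 298 to 665 kb.

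The stretch in which the paralogs are most alike is shown because reads are assigned to a member by its sequence. The lines give the 60 bases of Irx2 coding sequence with the fewest differences summed over the paralogs, and the best ungapped match in each of the others, 5′ to 3′ on the gene's strand, from GENCODE vM21 transcripts (GRCm38). Capitals mark bases that differ from Irx2. The windows lie in exon 2 of Irx1 (chr13:71960052-71960111), exon 2 of Irx2 (chr13:72630733-72630792), exon 5 of Irx4 (chr13:73267592-73267651), exon 2 of Irx3 (chr8:91800556-91800615), exon 2 of Irx5 (chr8:92359696-92359755) and exon 4 of Irx6 (chr8:92677305-92677364), within the homeobox.
Irx1: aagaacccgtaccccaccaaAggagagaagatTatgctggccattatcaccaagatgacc
Irx2: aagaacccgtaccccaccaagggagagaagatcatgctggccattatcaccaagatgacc
Irx4: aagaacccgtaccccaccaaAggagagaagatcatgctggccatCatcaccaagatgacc
Irx3: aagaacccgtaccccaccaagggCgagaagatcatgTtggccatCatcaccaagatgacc
Irx5: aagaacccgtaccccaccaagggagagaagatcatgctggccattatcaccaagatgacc
Irx6: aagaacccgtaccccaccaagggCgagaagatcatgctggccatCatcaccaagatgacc
Irx5 was identical to Irx2 over these 60 bases, and the other members differed at 2 or 3 of them. The longest run shared by transcripts of any 2 members was 88 bases, between Irx3 and Irx6, and Irx2 shared at most 65 bases with Irx5 and 23 to 32 bases with the others. Whether reads were divided between members was not tested.

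The 250 bases upstream of Irx2 are shown because they fill almost the whole gap to a noncoding gene that starts on the other strand, Gm20554, whose counts are given further on. They are set beside those of Irx4, the next member of the cluster, whose levels overlapped between all ages. Both come from RefSeq (GRCm38.p6), are read 5′ to 3′ on the plus strand at chr13:72628570-72628819 for Irx2 and chr13:73260247-73260496 for Irx4, and have the dinucleotide CG in capitals. The RefSeq start of Irx4 lies inside the gene span given above, so the last 18 bases of its window belong to that span.
Irx2: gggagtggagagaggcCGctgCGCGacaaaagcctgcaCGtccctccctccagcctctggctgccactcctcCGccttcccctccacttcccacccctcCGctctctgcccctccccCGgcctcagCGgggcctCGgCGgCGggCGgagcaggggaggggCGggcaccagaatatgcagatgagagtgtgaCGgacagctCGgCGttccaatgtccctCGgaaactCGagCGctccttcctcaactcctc
Irx4: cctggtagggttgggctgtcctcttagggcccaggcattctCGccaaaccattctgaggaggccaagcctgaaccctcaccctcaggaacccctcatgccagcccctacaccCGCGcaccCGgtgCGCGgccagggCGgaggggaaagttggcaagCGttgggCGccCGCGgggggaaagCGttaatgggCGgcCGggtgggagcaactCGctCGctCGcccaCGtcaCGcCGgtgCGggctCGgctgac
The Irx2 window holds 19 CG dinucleotides at 68.4% G and C, and the Irx4 window 22 at 68.8%. Over 32851 windows of the same length the medians were 6 CG dinucleotides and 52.4% G and C, and 19.7% of the windows held as many CG dinucleotides as that of Irx2 and 14.8% as many as that of Irx4. RefSeq windows were matched for 3 members, the other being Irx3.

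Irx2 went from a handful of read pairs per library in young mice to medians of 38 and 62.5 at the last ages. The 16 youngest libraries held 0 to 4 counts (median 1), those of 9 months 1 to 10 (median 5.5) and those of 15 months 3 to 15 (median 8). The 24-month libraries held 23 to 62 counts (median 38), and the 28-month libraries 37 to 167 (median 62.5). In CPM, counts scaled by TMM library sizes, the means in order of age were 0.0310 ± 0.0350, 0.155 ± 0.0770, 0.222 ± 0.102, 1.08 ± 0.250 and 1.97 ± 0.511 (SD, n = 16, 16, 16, 17 and 18). The groups of 15 and 24 months did not overlap, as the highest 15-month mouse had 0.430 CPM and the lowest 24-month mouse 0.836 CPM, so that all 17 mice at 24 months stood above all 16 at 15 months. The 9- and 15-month groups overlapped, with 11 of 16 mice at 15 months above the 9-month median. The 24- and 28-month groups overlapped too, although 18 of 18 mice at 28 months were above the 24-month median.

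**Figure D1:**
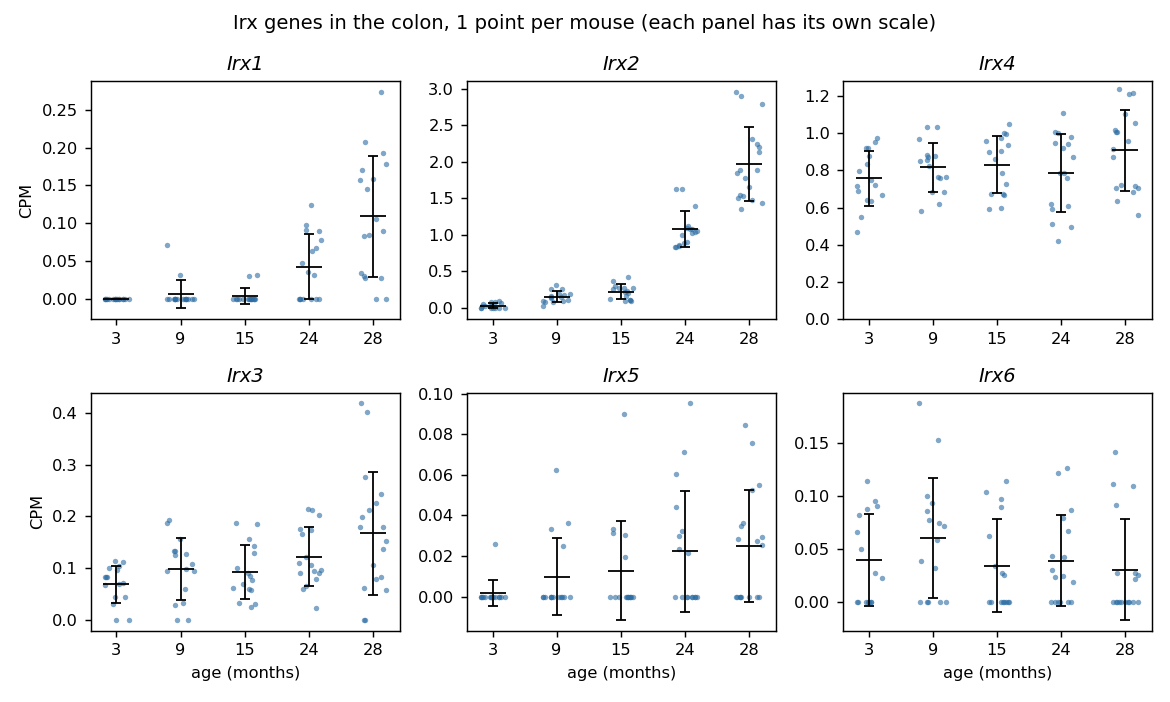
CPM of each Irx gene (y axis, a separate scale in each panel) by age in months (x axis), with 1 point per mouse and a bar for the mean ± SD. Irx2 stands at 0.836 CPM or more in every mouse of 24 and 28 months and at 0.430 or less in every younger mouse, while Irx4 keeps a mean of 0.757 to 0.908 CPM at all 5 ages.

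On the log2 scale of edgeR's fit with age and batch, Irx2 was higher by 2.05 (SE 0.32) at 9 than at 3 months, by 0.50 (SE 0.24) at 15 than at 9 months, by 2.30 (SE 0.19) at 24 than at 15 months and by 0.87 (SE 0.15) at 28 than at 24 months. As ratios of mean CPM these steps were 5.0-, 1.43-, 4.87- and 1.82-fold, and from 3 to 28 months 63.5-fold, with a log2 fold change of 5.73 (SE 0.24). The 3-month mean in these ratios rests on 20 counts in 16 mice. Of 18325 genes tested, 2 had a larger log2 rise from 3 to 28 months, 6 from 3 to 9 months, 8 from 15 to 24 months and 32 from 24 to 28 months, whereas 180 had a larger rise from 9 to 15 months. In all 3 batches the steps had the same direction. The step from 15 to 24 months ranged from 1.93 to 2.79 within batches, that from 3 to 9 months from 1.74 to 2.20, and that from 9 to 15 months from 0.05 to 1.02.

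Irx4, known for its part in the identity of the heart ventricle, lies 626 kb downstream of Irx2 and was the member with the highest level per length in young colon. Its counts per library had medians of 28, 30.5, 28, 33 and 32.5 in order of age, with ranges of 14 to 43, 15 to 38, 19 to 50, 13 to 45 and 17 to 73. Mean CPM was 0.757 ± 0.149, 0.816 ± 0.134, 0.832 ± 0.156, 0.787 ± 0.210 and 0.908 ± 0.216 in order of age (SD, n = 16, 16, 16, 17 and 18), and the ranges of all ages overlapped. The log2 difference between successive ages was 0.11 (SE 0.11), 0.03 (SE 0.11), -0.10 (SE 0.11) and 0.21 (SE 0.11), and between 3 and 28 months 0.26 (SE 0.11).

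Irx1, the third member of the IrxA cluster, was almost absent from the counts of young mice. It had no count in any of the 16 mice at 3 months, which allows a level of up to 0.00512 CPM if 3 counts over the whole group are taken as the limit. From 9 months on, the mice with any count of it were 2 of 16, 2 of 16, 10 of 17 and 16 of 18 in order of age. The summed counts of these groups were 4, 2, 29 and 79, and no single library exceeded 12. The ratio of summed levels between 24 and 15 months was 13.1 (exact 95% interval 3.33 to 114, counting error only). Mean CPM was 0.0428 ± 0.0430 in the 17 mice of 24 months and 0.109 ± 0.0800 in the 18 mice of 28 months (SD). The summed counts of 28 months, set against the summed library sizes, were at least 23.1-fold higher than 3 counts over the whole 3-month group. Of the 83 libraries, 53 had no count of it.

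The 3 genes of the IrxB cluster had at most 12 read pairs in any library. Irx3, which patterns the spinal cord and takes part in the conduction system of the heart, had medians of 3, 4, 3, 4 and 6 counts per library in order of age. Its mean CPM was 0.0689 ± 0.0361, 0.0983 ± 0.0603, 0.0933 ± 0.0524, 0.122 ± 0.0578 and 0.167 ± 0.119 in order of age (SD, n = 16, 16, 16, 17 and 18). The last was 2.43-fold the first, and their ranges overlapped. Irx5, which acts with Irx3 in the heart and is needed for certain bipolar cells of the retina, had 1, 6, 7, 13 and 17 counts summed over the mice of each age. Its 28-month level was 14.9 times the 3-month level, with an exact 95% interval of 2.34 to 623 that reflects the single count at 3 months. Irx6, also known from retinal bipolar cells, had 24, 36, 22, 25 and 21 counts summed over each age, and its mean CPM at 28 months was 0.777 times that at 3 months. Of the 3, Irx6 thus had its highest sum at 9 months, and Irx3 and Irx5 theirs at 28 months.

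Of the 6 members 2, Irx2 and Irx4, passed the filter on low counts (edgeR's filterByExpr) and entered the fit. Irx2 passed through the ages at which it is high, so the counts of members called that follow are descriptions only. At an adjusted p below 0.1, the threshold used for calls, 1 member (Irx2) was called from 3 to 9 months, where 8.69% of all genes tested were called. No member was called from 9 to 15 months (0.431% of all genes), 1 (Irx2) from 15 to 24 months (13.5%), 1 (Irx2) from 24 to 28 months (11.7%) and 2 (Irx2 and Irx4) from 3 to 28 months (49.4%). Irx4 was not called when the replicate number entered the fit as a block, with a log2 difference of 0.20 (SE 0.11).

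Levels between genes were compared per length, in TPM, which scales counts by merged exon length and library. At 3 months the order was Irx4 with 0.888 ± 0.185 TPM, Irx3 with 0.0764 ± 0.0399, Irx6 with 0.0364 ± 0.0393, Irx2 with 0.0294 ± 0.0333, Irx5 with 0.00161 ± 0.00645 and Irx1 listed at 0 (SD, n = 16). Only Irx4 stood apart from the gene next to it by more than the spread between mice. At 28 months the order was Irx2 with 1.86 ± 0.479 TPM, Irx4 with 1.08 ± 0.259, Irx3 with 0.187 ± 0.131, Irx1 with 0.129 ± 0.0947, Irx6 with 0.0282 ± 0.0429 and Irx5 with 0.0248 ± 0.0276 (SD, n = 18). Irx3 and Irx1 overlapped there, as did Irx1 and Irx6, and Irx6 and Irx5. The ranges of Irx2 and Irx4 overlapped between mice although Irx2 exceeded Irx4 within 17 of the 18. Irx2 TPM exceeded Irx4 TPM in 0 of 16, 0 of 16, 0 of 16 and 8 of 17 mice at 3, 9, 15 and 24 months. The summed TPM of the family was 1.03 ± 0.213, 1.25 ± 0.191, 1.29 ± 0.237, 2.17 ± 0.272 and 3.31 ± 0.595 in order of age (SD, n = 16, 16, 16, 17 and 18). The share of Irx2 in that sum was 2.58% ± 2.85, 11.1% ± 4.80, 15.6% ± 6.82, 46.5% ± 10.2 and 55.9% ± 7.31 (SD), and that of Irx4 was 86.2% ± 6.59, 74.9% ± 8.28, 73.3% ± 8.95, 42.4% ± 9.71 and 33.0% ± 6.62 (SD).

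**Figure D2:**
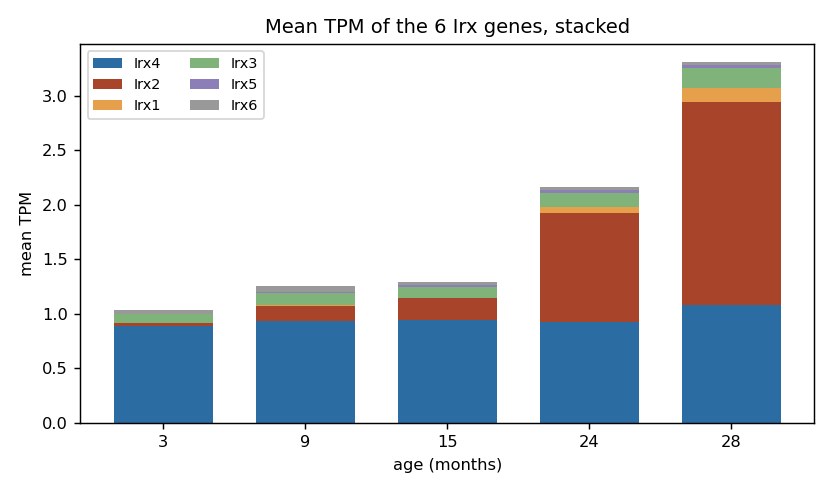
Mean TPM of the 6 Irx genes (y axis, stacked so that the bar height is the family's sum) by age in months (x axis). The Irx4 segment goes from 0.888 TPM at 3 months to 1.08 TPM at 28 months and the Irx2 segment from 0.0294 to 1.86 TPM, while the sum goes from 1.03 to 3.31 TPM.

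Gm20554 (ENSMUSG00000093587) is a long intergenic noncoding RNA gene at 72626213 to 72628564 on chromosome 13, on the minus strand, and 255 bases separate its start from that of Irx2. It is not a member of the family, and it is named here after its values were seen, because its mean CPM of 0.325 is below the minimum set for naming neighbours. Its libraries held 0 to 2, 0 to 6, 0 to 7, 9 to 29 and 18 to 79 counts in order of age, with medians of 1, 1, 3.5, 18 and 29.5. Mean CPM was 0.0245 ± 0.0222, 0.0485 ± 0.0593, 0.0879 ± 0.0653, 0.523 ± 0.142 and 0.862 ± 0.243 in order of age (SD, n = 16, 16, 16, 17 and 18). As for Irx2, the 15- and 24-month groups did not overlap, with at most 0.218 CPM at 15 months and at least 0.322 CPM at 24 months. Gm20554 passed the filter on low counts through these late ages, with at least 10 counts in 0, 0, 0, 16 and 18 mice in order of age, so its differences too are a description. On the log2 scale of the fit it was higher by 0.72 (SE 0.46) at 9 than at 3 months, by 0.91 (SE 0.37) at 15 than at 9 months, by 2.55 (SE 0.25) at 24 than at 15 months and by 0.74 (SE 0.18) at 28 than at 24 months. Between 3 and 28 months the difference was 4.91 (SE 0.29), and 18 of 18 mice at 28 months were above the 24-month median. Counting used the strand of the read, and the 2 genes lie on opposite strands. Whether pairs of either gene were counted for the other was not tested.

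**Figure D3:**
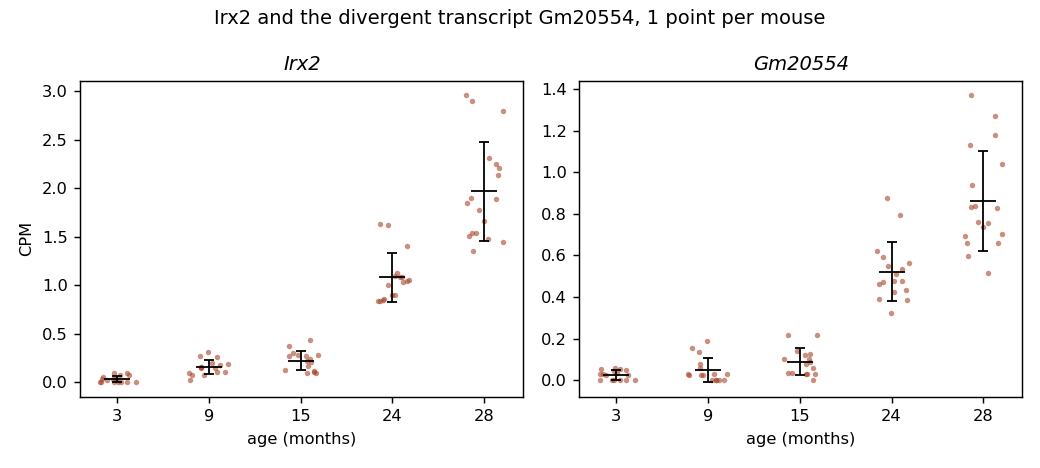
CPM of Irx2 (left) and Gm20554 (right) on the y axes by age in months (x axes), with 1 point per mouse and a bar for the mean ± SD. In both panels the 24-month mice lie above all 15-month mice, from 0.836 CPM upward for Irx2 and from 0.322 CPM upward for Gm20554.

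Across all 83 mice the log2 CPM of Irx2 and Gm20554 had a Pearson r of 0.93, a description in which the mice share age, and with age and batch removed the r was 0.40, with few counts of both genes in many mice. Among the 35 mice of 24 and 28 months, after age and batch were removed, the r was 0.27 and Spearman's rho 0.13 (permutation p = 0.113 and 0.450, adjusted p for r = 0.360 over 12 relations). Leaving out the 2 mice farthest from the median gave an r of 0.23. The same residuals of Irx2 and Irx4 had an r of -0.25 and a rho of -0.14 (permutation p = 0.15 and 0.433, adjusted p for r = 0.360), and -0.31 without the 2 farthest mice. None of the 12 relations passed after adjustment, and the relation of Irx2 to the epithelial marker score, with an r of 0.34, was the only one with an unadjusted permutation p below 0.05 (p = 0.0489, adjusted p = 0.360). Its rho was 0.21 (permutation p = 0.215), and without the 2 farthest mice its r was 0.15.

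From 3 to 28 months the other genes tested within 1 Mb of a member, the members left out, differed less than Irx2 and Gm20554. Of 88 genes in this range, Gm20554 included and the members left out, 39 passed the filter and were tested. EdgeR called 3 higher and 2 lower from 3 to 9 months, none from 9 to 15 months, 4 higher and 4 lower from 15 to 24 months, 2 higher and 3 lower from 24 to 28 months, and 12 higher and 9 lower from 3 to 28 months. These calls are 12.8%, 0%, 20.5%, 12.8% and 53.8% of the 39, beside 8.69%, 0.431%, 13.5%, 11.7% and 49.4% of all genes tested. They include Gm20554 and Ces1c, whose differences are descriptions only. Gm20554 is among the higher genes from 15 to 24, 24 to 28 and 3 to 28 months. Ces1c is among the higher genes from 3 to 9 months and the lower genes from 15 to 24 months. The median log2 fold change of the 39 from 3 to 28 months was 0.02, and that of all genes tested -0.01. On the IrxA side, Tert, the catalytic subunit of telomerase, fell from 3.26 ± 0.407 CPM at 3 months to 2.13 ± 0.316 at 28 months (log2 fold change -0.61, SE 0.07, edgeR adjusted p = 6.62e-11), with 0 of 18 old mice above the 3-month median. Its fall from 3 to 9 months was -0.42 on the log2 scale (SE 0.07, edgeR adjusted p = 5.31e-05). Clptm1l, next to Tert, fell by 0.13 on the log2 scale from 24 to 28 months (SE 0.03, edgeR adjusted p = 0.000564). Slc9a3, a sodium-proton exchanger of the gut epithelium, rose by 0.40 from 24 to 28 months (SE 0.12, edgeR adjusted p = 0.0236). Gm15912, a noncoding gene, rose by 0.31 from 15 to 24 months (SE 0.08, edgeR adjusted p = 0.00927) and by 0.42 from 3 to 28 months (SE 0.08, edgeR adjusted p = 8.40e-06).

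On the IrxB side the genes called included carboxylesterases of the Ces1 group, close paralogs between which reads may be divided. Ces1f fell by 0.47 on the log2 scale from 3 to 28 months (SE 0.07, edgeR adjusted p = 1.61e-07), by 0.22 from 15 to 24 months (SE 0.07, edgeR adjusted p = 0.0538) and by 0.23 from 24 to 28 months (SE 0.07, edgeR adjusted p = 0.0376). Ces1d rose by 0.29 from 15 to 24 months (SE 0.08, edgeR adjusted p = 0.0210), and Ces1g rose by 0.31 from 3 to 9 months (SE 0.10, edgeR adjusted p = 0.0700). Chd9, a chromatin remodeller, fell by 0.16 from 3 to 9 months (SE 0.05, edgeR adjusted p = 0.0797). Over 10 alternative analyses, Ces1f was called in 8 from 15 to 24 months (adjusted p up to 0.108) and in 9 from 24 to 28 months (adjusted p up to 0.102), Ces1g in 7 (adjusted p up to 0.116) and Chd9 in 6 (adjusted p up to 0.168). Ces1c, with a mean CPM below 1, was picked after its values were seen, and as a description its log2 differences were 1.13 from 3 to 9 months (SE 0.36) and -1.15 from 15 to 24 months (SE 0.32). The noncoding genes beside the IrxB members had too few counts for the fit. Irx3os, on the strand opposite to Irx3, had 14 counts in all 83 mice, and Crnde, which starts next to Irx5, had 326. Mean CPM of Crnde was 0.0768 ± 0.0565, 0.0946 ± 0.0384, 0.0734 ± 0.0272, 0.110 ± 0.0523 and 0.167 ± 0.0630 in order of age (SD, n = 16, 16, 16, 17 and 18), with overlapping ranges.

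**Figure D4:**
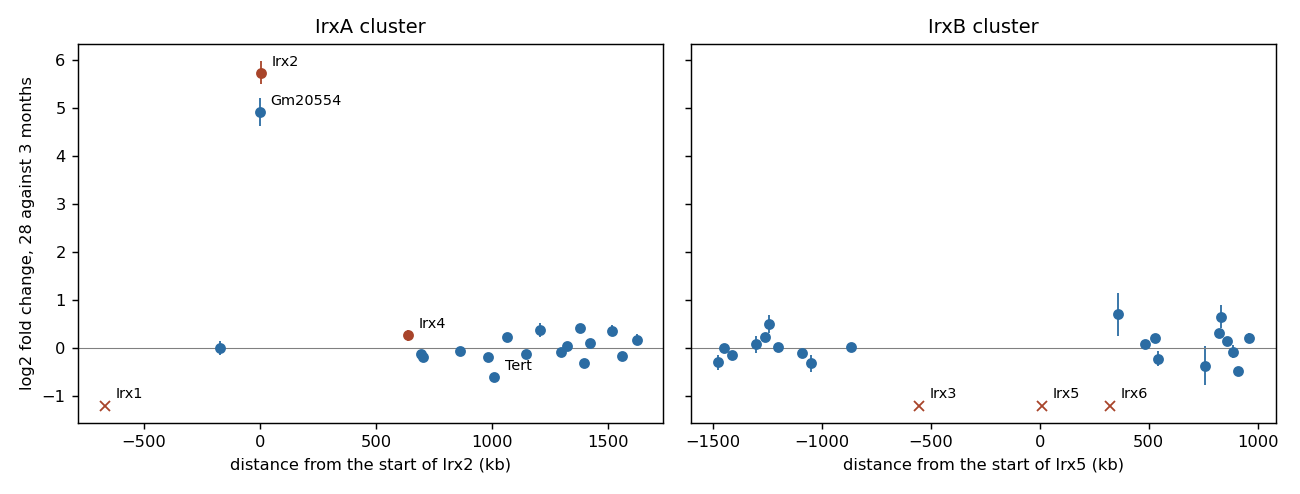
Log2 fold change at 28 against 3 months (y axis) of the genes tested within 1 Mb of a member, by distance in kb from the start of Irx2 (left) or Irx5 (right), with bars for the SE. Red points are Irx genes, blue points other genes, and red crosses at the bottom mark the 4 members that were not tested and have no fold change. Irx2 at 5.73 and Gm20554 at 4.91 lie far above the other neighbours.

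The other TALE homeobox genes were all expressed above the filter, 12 of 12, and differed far less between ages than Irx2. EdgeR called 0 higher and 2 lower from 3 to 9 months, none from 9 to 15 months, 1 higher and 1 lower from 15 to 24 months, 1 higher and 1 lower from 24 to 28 months, and 3 higher and 2 lower from 3 to 28 months, with a median log2 fold change of 0.02 in the last. The 5 calls from 3 to 28 months are 41.7% of the 12, beside 49.4% of all genes tested, and the 2 calls in each of the other comparisons with calls are 16.7%, beside 8.69%, 13.5% and 11.7%. Mkx, a factor of tendon and muscle differentiation, fell by 0.22 on the log2 scale from 3 to 9 months (SE 0.06, edgeR adjusted p = 0.0248) and by 0.20 from 15 to 24 months (SE 0.06, edgeR adjusted p = 0.0250). Pbx2, a Hox cofactor, fell by 0.14 from 3 to 9 months (SE 0.04, edgeR adjusted p = 0.0256), and Tgif1, a repressor in TGF-beta signalling, rose by 0.11 from 15 to 24 months (SE 0.04, edgeR adjusted p = 0.0919). Pknox1, a partner of Pbx proteins, fell by 0.23 from 3 to 28 months (SE 0.04, edgeR adjusted p = 7.24e-06), with 1 of 18 old mice above the 3-month median, and by 0.16 from 24 to 28 months (SE 0.04, edgeR adjusted p = 0.0105). Meis2 rose by 0.27 from 3 to 28 months (SE 0.12, edgeR adjusted p = 0.0541) and Meis1 by 0.23 (SE 0.11, edgeR adjusted p = 0.0813), and neither was called in every alternative analysis, with adjusted p up to 0.306 for Meis2 and 0.316 for Meis1. Tgif1 was called in 8 of 10 alternatives, with an adjusted p up to 0.15.

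The genes whose level over the 83 mice was most like that of Irx2 were, by Pearson r of log2 CPM among 14962 tested genes whose mean CPM reached 1, Dmrta2 (r = 0.92), Tfap2a (r = 0.92), Vsig2 (r = 0.92) and Lhfpl4 (r = 0.91). The mice share age, so these values describe the course over age. Dmrta2, a transcription factor of the developing forebrain, had 0.277 ± 0.105, 0.540 ± 0.169, 2.44 ± 0.737, 9.85 ± 1.57 and 12.2 ± 1.54 CPM in order of age (SD, n = 16, 16, 16, 17 and 18). Tfap2a, a transcription factor of neural crest and surface ectoderm, stayed at 0.0796 ± 0.0543, 0.0761 ± 0.0698 and 0.172 ± 0.0594 CPM up to 15 months and stood at 2.32 ± 0.248 and 3.86 ± 0.660 CPM at 24 and 28 months (SD, same n). Vsig2, a membrane protein of gut epithelium, had 21.7 ± 2.52 CPM at 3 months and 95.6 ± 7.06 at 28 months, with intermediate means that rank with age. After age and batch were removed, the highest r values with Irx2 were 0.45 for Adamts7, 0.44 for Ccrl2, 0.44 for Samhd1, 0.44 for Emp2 and 0.43 for Cpq. Since 48.2% of the mice had at least 10 counts of Irx2, these are values of sparse counts and no finding.

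**Figure D5:**
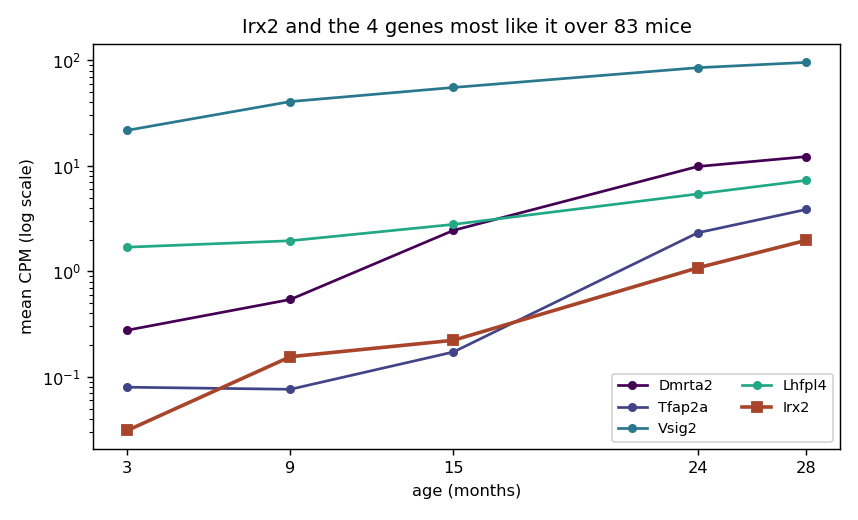
Mean CPM (y axis, log scale) of Irx2 and of the 4 genes with the highest Pearson r to it among tested genes with a mean CPM of 1 or more, by age in months (x axis). Irx2 and Tfap2a have their lowest means below 0.1 CPM in young mice, and all 5 genes have their highest mean at 28 months.

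The tissue label was checked with marker lists. All 6 epithelial markers were detected, with summed medians between 8407 and 8950 CPM across the ages, and the 5 smooth muscle markers and 5 of 6 posterior Hox genes passed the filter. Of the 4 endothelial markers, edgeR called 4 higher from 15 to 24 months, for example Pecam1 by 0.24 on the log2 scale (SE 0.05, adjusted p = 0.000346), and their summed CPM ranged from 60.02 to 115 at 15 months and from 92.3 to 119.99 at 24 months. In the same comparison 1 of 5 adipocyte, 1 of 4 glial, 1 of 5 fibroblast and 1 of 4 leukocyte markers were called higher, and no epithelial, smooth muscle, neuronal or posterior Hox marker was called. Of all genes tested, 13.5% were called there in either direction. From 3 to 28 months 49.4% of all genes tested were called in either direction. Of the 6 epithelial markers 3 were called lower, among them Cdh1 by -0.17 on the log2 scale (SE 0.05, edgeR adjusted p = 0.00363). So were 2 of 5 posterior Hox genes, Hoxd11 and Hoxd13. Over the same span 4 of 4 endothelial, 2 of 5 adipocyte and 1 of 4 leukocyte markers were called higher, 1 of 5 neuronal markers was called lower, and of the 5 fibroblast markers 1 was called higher and 2 lower. Among them, Dcn of fibroblasts rose by 0.51 on the log2 scale (SE 0.08, edgeR adjusted p = 6.31e-07) and Csf1r of macrophages by 0.45 (SE 0.10, edgeR adjusted p = 0.000115). The other leukocyte markers were not called and did not follow Csf1r. Mean CPM at 3 and 28 months was 44.6 and 40.4 for Ptprc, 9.51 and 7.34 for Cd79a, and 4.35 at both ages for Cd3e. The median log2 fold change of the leukocyte list was -0.07. Of 4 stratified squamous markers 1, Krt14, passed the filter, and it had a log2 difference of -0.37 from 3 to 28 months (SE 0.18, edgeR adjusted p = 0.0859). With the epithelial and smooth muscle scores as covariates, the Irx2 log2 difference was 2.26 (SE 0.19) from 15 to 24 months. From 3 to 28 months it was 5.69 (SE 0.25) in that fit. No fit was run with the scores of the other lists, and the part of the called markers in the Irx2 difference was not tested.

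Irx4, with at least 10 counts in every mouse, was the only member with enough counts to be related to the marker scores over all 83 mice. After age and batch were removed, none of its 9 correlations passed. The largest in size was that with the endothelial score, with an r of 0.13 and a rho of 0.14 (permutation p = 0.261 and 0.216, adjusted p for r = 0.929), and 0.13 without the 2 mice farthest from the median.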

How the data were processed

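RNA-seq of colon from 83 male mice at 5 ages was analysed. The authors sequenced stranded poly(A) libraries as pairs of 100-base reads, trimmed them with cutadapt 2.8, aligned them to GRCm38 with HISAT2 2.1.0, kept uniquely mapped reads with SAMtools 1.9 and counted properly mapped pairs by strand with featureCounts (Subread 2.0.1). The deposited values are raw counts of read pairs, 1 column per mouse, without scaling or pooling. Ages and batches were taken from the labels. Within an age all 649 pairs of mice differed by more than counting noise (lowest ratio 10.9). Each library came from 1 mouse.

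Genes were filtered with filterByExpr by age (18325 of 37764 kept), normalized with TMM and fitted with edgeR 4.0.16 (R 4.3.3) by a quasi-likelihood model with age and batch over all mice, with Benjamini-Hochberg adjustment and a threshold of 0.1 after the study. DESeq2 1.42.0, which the study used, other filters, scaling, covariates and sample sets were alternatives. The fits were tested on simulated counts. Positions, names and merged exon lengths came from GENCODE vM21 (37652 genes found), an earlier release than the one used for counting. Marker scores are means of log2 CPM with a prior count of 2. Correlations used two-sided permutation tests with 100000 resamples in Python 3.11.15 with scipy 1.17.1. Count ratios carry exact 95% intervals and levels at 0 a limit of 3 counts, for counting error only.

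The members and the lists were chosen with earlier results of these data known. Named are the 6 members, Irx3os and Crnde, at most 3 TALE and 3 neighbouring genes per comparison with the largest changes past the threshold and a mean CPM of at least 1, single markers of lists with calls, and the 5 genes most like Irx2 by each measure, of which some are not reported here. No p-value is given for the age differences of the members, because the family was chosen for them.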

Additional observations from a re-analysis of the deposited data

How the results depend on the processing

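The Irx2 fold changes, a description since they chose the family, ranged over the alternatives from 2.26 to 2.34 on the log2 scale for 15 to 24 months and from 5.69 to 5.87 for 3 to 28 months. With only the 2 ages compared, Irx2 did not pass the filter from 3 to 9 and from 9 to 15 months and had no value there. The number of members called in at least 1 of 5 comparisons was 2, and it was 5 with no filter on low counts, where more members were tested, 5 with DESeq2, which changes both the test and the filter, and 1 with the replicate block (the cause was not tested). Of the TALE genes 7 were called in at least 1 comparison, with 4 to 9 in the alternatives and 4 at an adjusted p below 0.05. Of the neighbouring genes 23 were called, with 20 to 26 in the alternatives and 22 without Gm20554, an alternative chosen after seeing the data. The share of all genes called in at least 1 comparison was not counted. In the main fit 49.4% of all genes tested were called from 3 to 28 months alone, so these counts of members and listed genes are no finding about them. The 12 relations of Irx2 and Irx4 at 24 and 28 months were also chosen after seeing the data. There, 0 passed with age and batch removed, and 1, Irx2 with Gm20554, passed with age and batch left in (the cause was not tested). Replicate numbers did not pair the mice: over 161 pairs of groups and numbers the correlation of deviations had a median of 0.01 and ranged from -0.31 to 0.29, with 27 over 0.1. The replicate block moved no other count by more than 1.5 times. Depth limits Irx1, Irx5 and Irx6, which had 114, 44 and 128 counts over all mice.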
